A study of Mus musculus with 6 samples.

Results

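Acyl-CoA thioesterases are enzymes that split an acyl-CoA, the activated form in which cells handle fatty acids, into the free acid and coenzyme A. The 9 genes described here are *Acot1*, *Acot2*, *Acot3*, *Acot4*, *Acot7*, *Acot8*, *Acot9*, *Acot12* and *Acot13*, which were found by symbol in the deposited gene table and joined to the read counts by Ensembl identifier. They are 9 of 54446 genes listed. Liver RNA was sequenced from 3 wild-type (WT) mice and 3 *Fmo5*-/- mice, to ask which transcripts differ when flavin-containing monooxygenase 5 is missing. Male mice aged 32 weeks were used, the WT mice being C57BL/6J and the *Fmo5*-/- mice having been made on that background, and they differ by genotype with no other treatment. They ate chow without restriction, and livers were removed before midday. The knock-out is in every cell of the body, so differences that arise in the liver and in other organs cannot be told apart, and whether the mice were littermates is not given in the sources used here. Each library is 1 mouse.

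Thioesterases run against the acyl-CoA synthetases, which make the same acyl-CoAs from fatty acid and coenzyme A, and the balance sets how much acyl-CoA, free acid and free coenzyme A a compartment holds. The family has 2 kinds of protein with unrelated folds that catalyse the same reaction. Type I enzymes, *Acot1* to *Acot4* here, have an alpha/beta-hydrolase fold and are encoded by a cluster of duplicated genes. Type II enzymes, *Acot7*, *Acot8*, *Acot9*, *Acot12* and *Acot13* here, have the hotdog fold. In liver, fatty acid oxidation in mitochondria and peroxisomes is the best known setting of the family, and several type I genes are textbook targets of PPARA, the nuclear receptor for fatty acids. By compartment, 3 members are cytosolic (*Acot1*, *Acot7*, *Acot12*), 3 were set with the mitochondrion (*Acot2*, *Acot9*, *Acot13*) and 3 are peroxisomal (*Acot3*, *Acot4*, *Acot8*). ACOT13 is found both at mitochondria and in the cytosol.

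The 4 type I genes lie next to each other on the plus strand of chromosome 12 of mm10. *Acot2* spans 83987861 to 83993873, *Acot1* spans 84009490 to 84018371, *Acot4* spans 84038379 to 84048601 and *Acot3* spans 84052144 to 84060402. The 250 bases before the start site of each are printed here, from RefSeq on GRCm38.p6, because these 4 genes moved together from mouse to mouse. They are chr12:84009252-84009501 for *Acot1*, chr12:83987611-83987860 for *Acot2*, chr12:84051894-84052143 for *Acot3* and chr12:84038129-84038378 for *Acot4*, 5′ to 3′ on the plus strand. The *Acot1* stretch follows the RefSeq start and runs past 84009490, the gene start given above. Distances in *Acot1* are counted from that RefSeq start. Capitals mark the matches, on either strand, to the letters CCAAT (the CCAAT box), to the letters TATAAA (the TATA box), to the letters GGGCGG (the GC box) and to the letters AGGTCA (the core that nuclear receptors bind).
Acot1: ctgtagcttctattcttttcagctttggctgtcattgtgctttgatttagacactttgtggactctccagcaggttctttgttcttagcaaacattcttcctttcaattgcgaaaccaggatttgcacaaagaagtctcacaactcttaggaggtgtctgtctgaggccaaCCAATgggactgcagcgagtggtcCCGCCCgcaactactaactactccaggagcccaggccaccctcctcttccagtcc
Acot2: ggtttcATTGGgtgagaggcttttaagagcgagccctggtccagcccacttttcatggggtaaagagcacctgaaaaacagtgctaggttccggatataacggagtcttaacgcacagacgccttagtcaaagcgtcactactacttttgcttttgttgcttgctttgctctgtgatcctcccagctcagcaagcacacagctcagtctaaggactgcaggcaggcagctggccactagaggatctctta
Acot3: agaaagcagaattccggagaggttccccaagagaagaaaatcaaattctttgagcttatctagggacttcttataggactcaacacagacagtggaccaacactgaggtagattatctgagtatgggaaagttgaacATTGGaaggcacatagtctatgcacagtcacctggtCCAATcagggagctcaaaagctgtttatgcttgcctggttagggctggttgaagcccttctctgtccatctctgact
Acot4: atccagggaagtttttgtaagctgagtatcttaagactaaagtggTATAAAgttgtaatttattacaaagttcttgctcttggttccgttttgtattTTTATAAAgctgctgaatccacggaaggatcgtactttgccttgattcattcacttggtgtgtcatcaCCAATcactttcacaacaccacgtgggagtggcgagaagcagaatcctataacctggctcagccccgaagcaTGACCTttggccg
Aligned in pairs, the 4 stretches had 44.1% to 48.4% identical positions, within the 42.0% to 48.7% seen over all pairs of members. The CCAAT box stood 79 bases before the start in *Acot1*, 77 bases in *Acot3* and 85 bases in *Acot4*, on the plus strand in each. *Acot2* had it only at 244 bases, on the minus strand, and *Acot3* had a further minus-strand match at 113 bases. The TATA box was found only in *Acot4* of the 4, in matches 205, 153 and 151 bases before the start, of which those at 153 and 151 overlap on opposite strands. The GC box was found only in *Acot1*, at 55 bases on the minus strand. The nuclear receptor core was found only in *Acot4*, at 13 bases on the minus strand. Over all 32851 promoters of the table, 33.8% held a CCAAT box, 12.4% a TATA box, 32.7% a GC box and 14.0% a nuclear receptor core in a window of the same length. The exact direct repeat of that core with 1 free base between the copies, an arrangement of the kind PPARA binds, was found in 0.0335% of all promoters and in none of the 8 members with an entry. These are matches of letters in a short window and say nothing of binding. RefSeq sequence was matched for 8 of the 9 members, all but *Acot13*.

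The labels and depth were checked first. *Fmo5* itself had 30240 to 39807 normalized counts in the WT mice and 1071 to 1194 in the *Fmo5*-/- mice, a log2 fold change of -5.00 (SE 0.14, edgeR adjusted p = 2.8e-07). A normalized count is the read count scaled to a common library size, the mean of the 6 libraries, and all fold changes are *Fmo5*-/- over WT. Libraries held 44886286 to 52338675 counts on genes, and the members had between 80 and 5406 reads each per library. Transcripts of 8 hepatocyte markers summed to 109814 to 141588 CPM (counts scaled to a common total) in WT mice and 110103 to 138245 in *Fmo5*-/- mice. Of these markers 7 of 8 were fitted lower in *Fmo5*-/- mice, as 8 of the 9 thioesterases were, and 0 were called by edgeR or DESeq2. The part of hepatocyte content in the thioesterase values was not tested. Among 16734 genes tested, 229 (1.37%) had an adjusted p under 0.05 in edgeR's quasi-likelihood test.

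All 9 thioesterases passed the filter on low counts, and none was called, against 1.37% of all genes. At an unadjusted p under 0.05, 2 of the 9 passed, *Acot1* and *Acot12*, both lower in *Fmo5*-/- mice, where 21.8% of all genes passed. DESeq2 likewise called 0 of 9, against 8.93% of the genes it tested, with the same 2 members under an unadjusted p of 0.05. The fitted fold change was below 0 for 8 members and above 0 for *Acot9*, with a median of -0.25 on the log2 scale beside 0.0058 over all genes. The groups did not overlap for 1 member, *Acot1*, where 27.4% of all genes did not overlap in either direction and 13.5% did not overlap with the *Fmo5*-/- mice lower. In bulk liver, fewer cells of a type and less RNA per cell cannot be told apart.

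**Figure D1:**
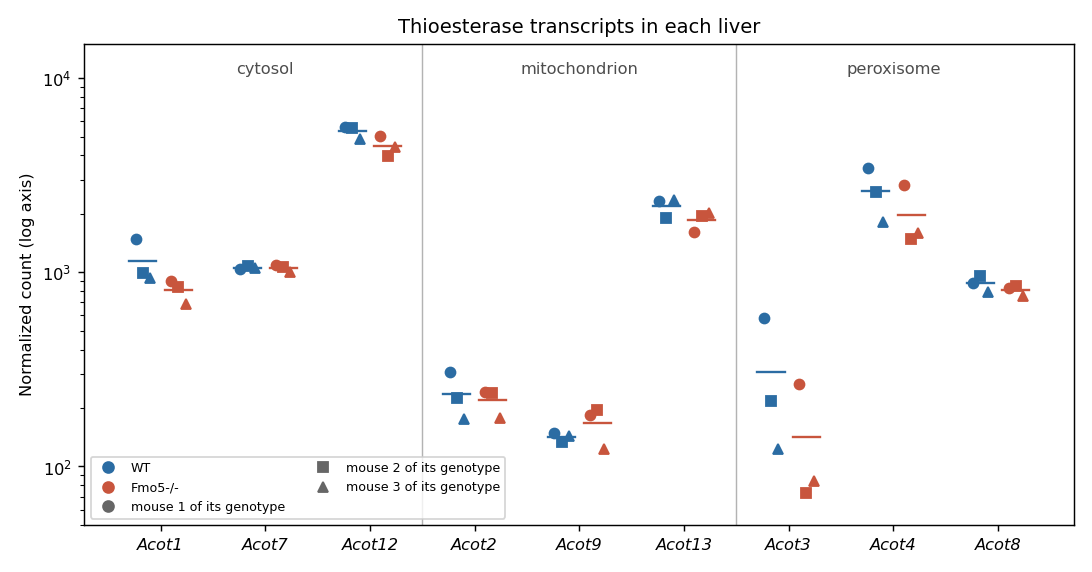
Normalized counts (log axis) of the 9 thioesterases in each of 3 WT and 3 *Fmo5*-/- livers, where each point is 1 mouse, its shape gives the mouse of that genotype and the genes are set out by compartment. The genotypes overlap for every gene but *Acot1*, whose lowest WT value is 931 and highest *Fmo5*-/- value is 906, and *Acot3* spreads furthest, from 73.4 to 579.

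Of the cytosolic enzymes, *Acot1* and *Acot12* were fitted lower in *Fmo5*-/- mice and *Acot7* had nearly the same value in every liver. *Acot1* (ENSMUSG00000072949.6) hydrolyses long-chain acyl-CoAs in the cytosol. It had 1487, 994 and 931 normalized counts in the WT mice and 906, 839 and 686 in the *Fmo5*-/- mice. Every *Fmo5*-/- mouse lay below every WT mouse, by a narrow gap, and the first WT mouse stood well above the rest. WT mice had a mean of 1138 ± 304 and *Fmo5*-/- mice of 810.2 ± 112 (SD, n = 3 each). The log2 fold change was -0.49 (95% interval -0.93 to -0.050) and missed the threshold (edgeR adjusted p = 0.189, DESeq2 adjusted p = 0.0694). The fold change was -0.24 without the first WT mouse and -0.61 at the other end of the range, over the 6 fits that each left out a mouse. With no filter on low counts it was -0.51, and *Acot1* was then called (edgeR adjusted p = 0.00030), in a fit that called 1989 genes where the fit with the filter called 229. The 5 adipocyte markers summed to 9.34 to 21.9 CPM in WT mice and 0.885 to 2.88 CPM in *Fmo5*-/- mice, with most of it *Cfd*, which had 442 to 900 reads in WT mice and 41 to 140 in *Fmo5*-/- mice. *Adipoq* had 38 reads in the first WT mouse and 0 to 8 in the other 5 mice. Only *Cfd* of the 5 was tested, with a log2 fold change of -3.21 and no overlap between the genotypes. It was called by DESeq2 (adjusted p = 3.45e-05) and not by edgeR (adjusted p = 0.0633). Their part in the *Acot1* difference was not tested.

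*Acot12* hydrolyses acetyl-CoA in the cytosol and is a liver enzyme. It lies on chromosome 13 from 91741512 to 91786148, plus strand. Its normalized counts were 5576, 5528 and 4841 in WT mice and 5036, 3979 and 4425 in *Fmo5*-/- mice. The 2 highest livers were WT, and the highest *Fmo5*-/- liver lay above the lowest WT liver. The log2 fold change was -0.25 (95% interval -0.48 to -0.0081, unadjusted p = 0.0441 and adjusted p = 0.215 in edgeR). An antisense gene, 4833422C13Rik, overlaps its exons by 149 bases, and had 87.0 to 119 normalized counts.

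*Acot7* hydrolyses long-chain acyl-CoAs and is best known from brain. It lies on chromosome 4 from 152178134 to 152271855, plus strand, and no 75-base read window of its transcripts is shared with another gene. It had 1041, 1077 and 1047 normalized counts in WT mice and 1094, 1065 and 1001 in *Fmo5*-/- mice. The values of the genotypes lay within each other, and the highest was 1.09 times the lowest, where the median gene with a mean of 500 or more ranged 1.29-fold. Its log2 fold change of -0.0022 had a 95% interval of -0.17 to 0.17 (edgeR adjusted p = 0.990), or 0.887 to 1.12 as a ratio of *Fmo5*-/- to WT.

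**Figure D2:**
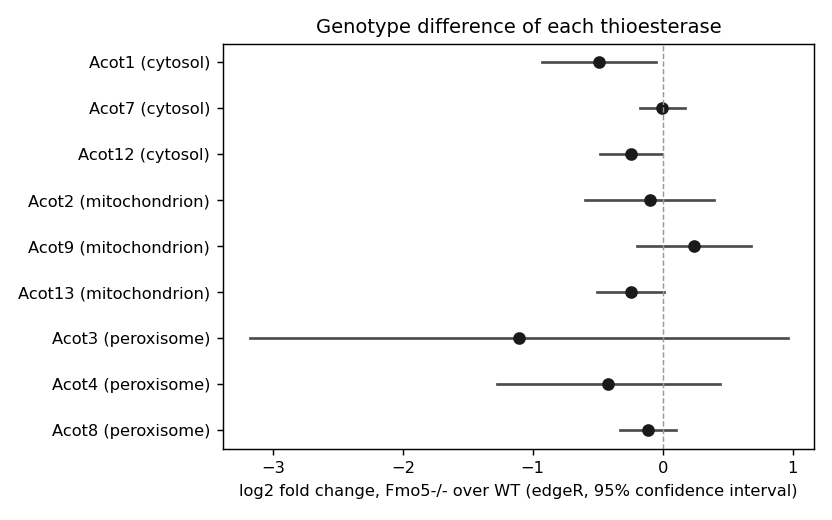
Log2 fold change of each thioesterase, *Fmo5*-/- over WT, from edgeR (points) with its 95% confidence interval (bars), and 0 as a dashed line. The intervals of *Acot1* and *Acot12* lie wholly below 0 before adjustment, *Acot7* has the narrowest interval and *Acot3* the widest, -3.18 to 0.96.

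Of the members set with the mitochondrion, *Acot13* had the most reads and was fitted lower, and *Acot2* and *Acot9* were low in every liver. *Acot13*, also named Them2, hydrolyses long-chain acyl-CoAs and binds the phosphatidylcholine transfer protein *Pctp*. It lies on chromosome 13 from 24817948 to 24831540, minus strand. WT mice had 2341, 1911 and 2350 normalized counts and *Fmo5*-/- mice had 1608, 1946 and 2012. The second WT mouse lay among the *Fmo5*-/- mice and the other 2 lay above all of them. Its log2 fold change was -0.25 (95% interval -0.51 to 0.012, edgeR adjusted p = 0.251), and -0.15 without the first *Fmo5*-/- mouse.

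*Acot2* hydrolyses long-chain acyl-CoAs in the mitochondrial matrix. Its normalized counts were 307, 224 and 176 in WT mice and 243, 239.6 and 177 in *Fmo5*-/- mice. The lowest mouse of each genotype lay at almost the same value and the groups overlapped throughout. The log2 fold change was -0.10 (95% interval -0.59 to 0.39, edgeR adjusted p = 0.836), and it was 0.14 without the first WT mouse and 0.032 without the third *Fmo5*-/- mouse. *Acot2* is the member whose reads are the least its own. Of its 2122 windows of 75 bases, 450 also occur in another gene and 434 of these in *Acot1*, and reads from such windows map to more than 1 place and were not counted.

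*Acot9* hydrolyses short- and long-chain acyl-CoAs in the mitochondrial matrix and lies on the X chromosome from 155262443 to 155297654, plus strand. It had 148, 134 and 143 normalized counts in WT mice and 184, 196 and 124 in *Fmo5*-/- mice. The first and second *Fmo5*-/- mice were above all WT mice, and the third was below all of them. The log2 fold change was 0.24 (95% interval -0.20 to 0.68, edgeR adjusted p = 0.515), and it was 0.42 without the third *Fmo5*-/- mouse and 0.12 without the second. *Acot9* was the only member fitted higher. The same 2 *Fmo5*-/- mice had the highest sums of the 7 Kupffer cell (liver macrophage) markers, 520.1 and 491 CPM, where the third had 282. The WT mice had 209.8, 215 and 180.1 CPM, so the second WT mouse was the highest of its genotype. For *Acot9* that mouse was the lowest of its genotype. All 7 of those markers were fitted higher in *Fmo5*-/- mice with none at or near 0 in any liver. EdgeR called 1 of them, *Clec4f* (log2 fold change 0.70, adjusted p = 0.0275), and DESeq2 called 6, all but *Adgre1*. The 5 lymphocyte markers were also all fitted higher and summed to 3.98 to 6.07 CPM in WT mice and 7.96, 12.7 and 6.21 CPM in *Fmo5*-/- mice, listed mouse by mouse as for *Acot9*, with 0 called by edgeR and 1 by DESeq2. The part of either cell type in the *Acot9* values was not tested.

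The peroxisomal enzymes held the widest spread of the family and no call. *Acot3* hydrolyses long-chain acyl-CoAs in peroxisomes. Normalized counts were 579, 216 and 123 in WT mice and 267, 73.4 and 84.4 in *Fmo5*-/- mice. The highest liver had 7.89 times the count of the lowest, and the first mouse of each genotype stood above the other 2 of its genotype. The coefficient of variation was 78.8% in WT mice and 76.9% in *Fmo5*-/- mice, so the log2 fold change of -1.11 carried a 95% interval from -3.18 to 0.96 (edgeR adjusted p = 0.496). Leaving out 1 mouse at a time moved it as far as -1.96, when the first *Fmo5*-/- mouse was dropped, and -0.25, when the first WT mouse was dropped.

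*Acot4* acts on succinyl-CoA and other dicarboxylic acyl-CoAs in peroxisomes. It had 3461, 2599 and 1825 normalized counts in WT mice and 2828, 1486 and 1586 in *Fmo5*-/- mice. The first *Fmo5*-/- mouse lay above 2 of the 3 WT mice, and the other 2 lay below all WT mice. The log2 fold change was -0.42 (95% interval -1.28 to 0.44, edgeR adjusted p = 0.544), and was -0.78 when the first *Fmo5*-/- mouse was dropped, -0.25 when the second was and -0.17 when the first WT mouse was. An antisense gene, 4732463B04Rik, overlaps exons of both *Acot3*, by 312 bases, and *Acot4*, by 615 bases. It had 202, 243 and 119.6 normalized counts in WT mice and 311, 75.3 and 80.5 in *Fmo5*-/- mice, so that it too was highest in the first *Fmo5*-/- mouse among the knock-outs. The libraries do not keep strand, with 49.9% to 50.1% of reads on 1 strand. Reads of the gene and its antisense partner therefore cannot be told apart where they overlap. Reads that lay in several genes were left out of the counts tested.

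*Acot8* hydrolyses a wide range of acyl-CoAs in peroxisomes, among them those of bile acid intermediates. It lies on chromosome 2 from 164792765 to 164804882, minus strand. It had 884, 956 and 794 normalized counts in WT mice and 830.1, 853 and 754 in *Fmo5*-/- mice. The groups overlapped and the highest value was 1.27 times the lowest. Its log2 fold change was -0.11 (95% interval -0.33 to 0.10, edgeR adjusted p = 0.541). It was -0.046 without the second WT mouse, -0.064 without the third *Fmo5*-/- mouse and -0.18 without the third WT mouse. *Acot8* shares 246 bases of exon with *Snx21* on the other strand.

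By mouse, the type I genes varied together, and the type II genes did so only in some pairs. The first WT mouse was the highest of its genotype for *Acot1*, *Acot2*, *Acot3*, *Acot4*, *Acot9* and *Acot12*, and the first *Fmo5*-/- mouse was the highest of its genotype for *Acot1*, *Acot2*, *Acot3*, *Acot4*, *Acot7* and *Acot12*. Over the 6 livers, the correlation of log2 normalized counts was between 0.71 and 0.99 for the 6 pairs of type I genes, the highest being *Acot3* with *Acot4*. It was between -0.58 and 0.65 for the 10 pairs of type II genes. With the genotype means taken out, the type I pairs lay between 0.74 and 0.98, with *Acot1* and *Acot2* at 0.95. The type II pairs then lay between -0.80 and 0.75, with 5 of the 10 below 0, so the ranges met, and pairs of a type I with a type II gene reached 0.92. The 5 erythroid markers summed to 302, 291 and 202 CPM in WT mice and 433, 203 and 216 CPM in *Fmo5*-/- mice. Of these markers 4 of 5 were fitted higher in *Fmo5*-/- mice and 0 were called. Their sum had the order of mice seen for *Acot3* and *Acot4*, though *Hba-a1* and *Alas2* were highest in the second WT mouse. The PPARA targets *Cyp4a14* and *Cyp4a10*, taken up below, were also highest in the first mouse of each genotype. Not all PPARA targets were. *Cpt2* and *Slc25a20* were highest in the second WT mouse, and *Cpt2* also in the second *Fmo5*-/- mouse of its genotype. The part of erythroid cells or of PPARA in this pattern was not tested. The correlations describe 6 libraries, in which a shared library or scaling moves genes alike, and reads that fit more than 1 of the type I genes were left out of all of them.

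**Figure D3:**
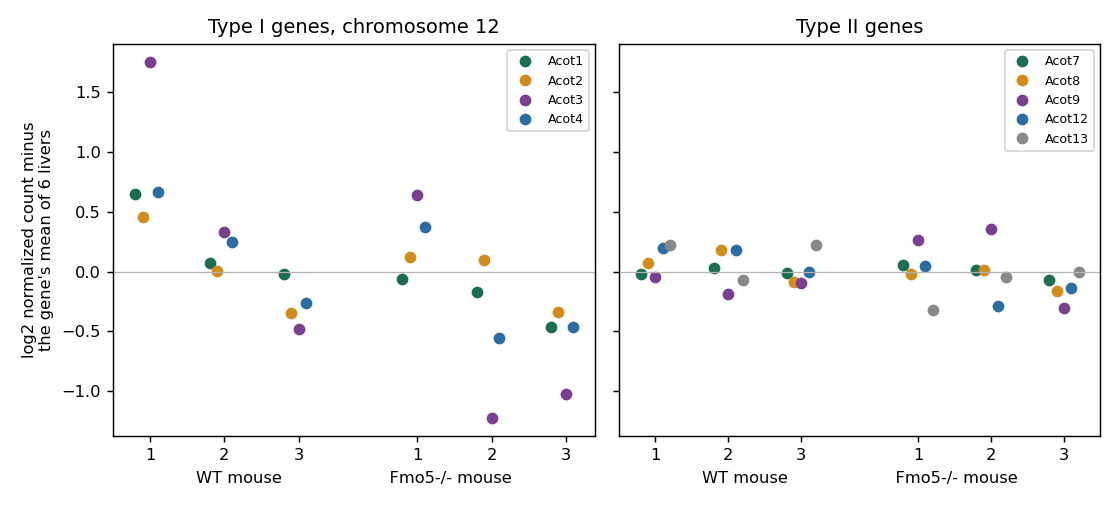
Log2 normalized count of each thioesterase in each mouse, less that gene's mean over the 6 livers, for the 4 type I genes (left) and the 5 type II genes (right), with 1 point per mouse and gene. The type I genes stand highest in the first WT mouse and 3 of the 4 stand above their means in the first *Fmo5*-/- mouse, with *Acot3* moving furthest, and the type II genes stay closer to 0.

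Among type II genes, *Acot12* went with the peroxisomal type I pair (r = 0.90 with *Acot4* and 0.88 with *Acot3*) more than with the type II genes. *Acot13* ran the other way to several members within genotypes, with a correlation of -0.80 with *Acot7*, -0.67 with *Acot12* and -0.55 with *Acot4* once the genotype means were taken out. The genes most like *Acot3* over the 6 livers, of 7819 with a mean of 500 or more, were *Tgoln1* (r = 0.993), *Prkd3* (0.993) and *Acot4* (0.987). Those most like *Acot4* were *Ptpn12* (0.989), *Slc27a5* (0.988), which encodes the liver's bile acid and very long-chain acyl-CoA synthetase, and *Ankrd13a* (0.986). They are the top of 7819 genes over 6 livers, and none of the 5 outside the family was called.

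Per kilobase of exon, the family in liver was led by *Acot13* and *Acot12*. On the scale of scaled CPM per kb, *Acot13* stood at 60.6 ± 6.9 (WT) and 51.1 ± 6.0 (*Fmo5*-/-), with *Acot12* at 33.1 ± 2.6 and 27.9 ± 3.3 (SD, n = 3 each). Together they made up 66.6% to 74.5% of the summed level of the 9 in each liver. Next came *Acot7* with 10.2 ± 0.18 in WT mice, *Acot8* with 9.01 ± 0.83, *Acot4* with 8.07 ± 2.5 and *Acot1* with 5.94 ± 1.6. The lowest were *Acot2* with 2.20 ± 0.62, *Acot3* with 1.82 ± 1.4 and *Acot9* with 1.28 ± 0.066. The middle of this order depends on the length used. Per kb of the longest transcript, WT means were 14.4 for *Acot7*, 14.1 for *Acot8*, 8.92 for *Acot1* and 8.68 for *Acot4*, so that *Acot1* stood above *Acot4*. In both genotypes, neighbours in the order by exon length overlapped between mice for *Acot8* and *Acot4*, for *Acot4* and *Acot1*, and among *Acot2*, *Acot3* and *Acot9*. The other neighbours did not overlap. In *Fmo5*-/- mice *Acot3* was the lowest, at 0.844 ± 0.65, below *Acot9* at 1.51 ± 0.35.

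Summed over the 9 genes, the level per kb was 144, 125 and 127 in WT mice and 114, 111 and 112 in *Fmo5*-/- mice. All *Fmo5*-/- livers lay below all WT livers on this sum, which *Acot13* and *Acot12* dominate and which is given with no test. The division between compartments differed between the genotypes by less than the SD between mice. The cytosolic members held 37.3% ± 2.4 of the sum in WT mice and 37.7% ± 2.9 in *Fmo5*-/- mice, those set with the mitochondrion 48.5% ± 4.3 and 48.8% ± 5.5, and the peroxisomal members 14.2% ± 2.5 and 13.6% ± 2.6 (SD, n = 3 each). The large mitochondrial share is that of *Acot13*, and with *Acot13* counted as cytosolic the cytosol held 83.2% of the sum in WT mice and 83.3% in *Fmo5*-/- mice.

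**Figure D4:**
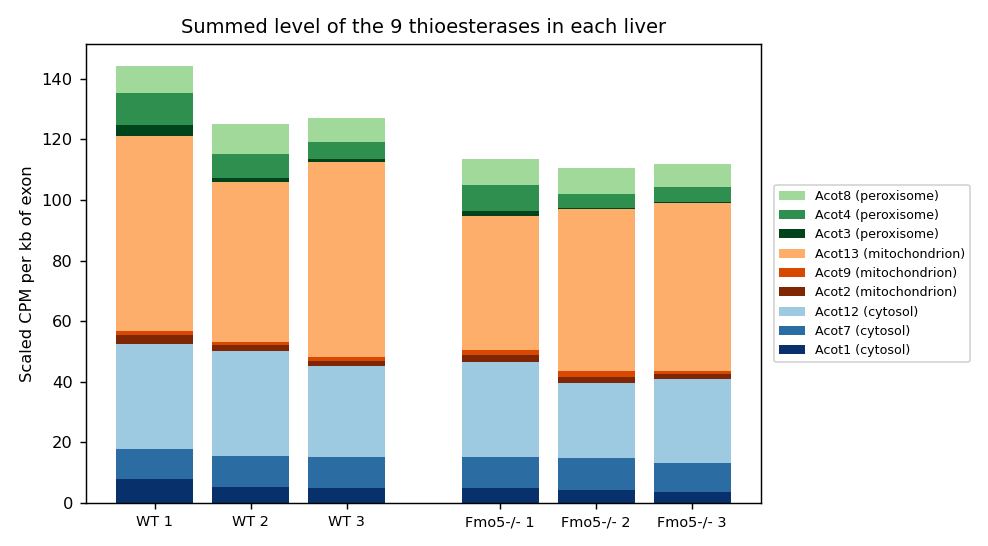
Level of the 9 thioesterases in each liver, in scaled CPM per kb of exon, stacked by gene and shaded by compartment (blue cytosol, orange mitochondrion, green peroxisome). The bars end at 125 to 144 in the 3 WT mice and at 111 to 114 in the 3 *Fmo5*-/- mice, and *Acot13* and *Acot12* make up most of each.

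Of the other Acot and Them genes, only *Them4*, *Acot11*, *Acot6* and *Them6* were tested. Of these, 1 was called in edgeR, where 1.37% of all genes were. *Them4*, a mitochondrial hotdog-fold thioesterase, had 775, 666 and 767 normalized counts in WT mice and 497, 489 and 439.8 in *Fmo5*-/- mice. Every *Fmo5*-/- mouse lay well below every WT mouse, and *Them4* was lower by a log2 fold change of -0.63 (SE 0.10, edgeR adjusted p = 0.0275). The call was lost without the first WT mouse, without the third WT mouse, without the first or the second *Fmo5*-/- mouse (edgeR adjusted p = 0.0598 to 0.109) and with the limit of 500 before the fit (0.0607), the fold change lying between -0.70 and -0.57 throughout. *Acot11*, known from brown fat, had a log2 fold change of -0.49 (adjusted p = 0.167), *Acot6*, a type I gene of the same cluster, 0.42 (adjusted p = 0.425) and *Them6* 0.39 (adjusted p = 0.210), all in edgeR. *Acot5*, *Acot10* and *Them5* had at most 10 reads in any library and were not tested.

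Around the thioesterases in the pathway, all edgeR calls were lower in *Fmo5*-/- mice, and each list's count stands against 1.37% of all genes called by edgeR, 21.8% at an unadjusted p under 0.05 in edgeR and 8.93% called by DESeq2. *Fgf21*, *Cpt2* and *Slc25a20* each stand in 2 of the lists. Of the acyl-CoA synthetases, which run the reverse reaction, 0 of 20 tested were called (edgeR), with 4 at an unadjusted p under 0.05, 4 called by DESeq2 and a median log2 fold change of -0.11. The smallest adjusted p values were those of *Slc27a2* (-0.37, adjusted p = 0.0711), a very long-chain synthetase, and *Acss3* (-1.15, adjusted p = 0.0756). Among 16 other thioester hydrolases tested, 2 fell. They were *Them4*, which is the call already given above, and *Lypla1* (-0.45, edgeR adjusted p = 0.0468), which removes palmitate from proteins. The list had a median of -0.098, with 7 at an unadjusted p under 0.05 and 4 called by DESeq2. In edgeR 0 to 4 were called when a mouse was left out. The *Lypla1* call was kept without the third *Fmo5*-/- mouse and lost without any other single mouse (edgeR adjusted p = 0.0544 to 0.147). It was also lost with the limit of 500 before the fit (0.0622) and with the reads of 1 strand (0.0504). Its fold change lay between -0.50 and -0.38 throughout. For making, breaking down and binding coenzyme A and its esters, 0 of 21 genes were called in edgeR, with 8 at an unadjusted p under 0.05, 5 called by DESeq2 and a median of -0.19. *Pank3* (-0.46, adjusted p = 0.0713), a pantothenate kinase of the first step of coenzyme A synthesis, and *Coasy* (-0.36, adjusted p = 0.0779), of the last, came closest.

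Of 19 peroxisomal beta-oxidation genes, 0 were called in edgeR, with 9 at an unadjusted p under 0.05, 5 called by DESeq2 and a median of -0.23. *Abcd3* (-0.53, adjusted p = 0.0523), which carries acyl-CoAs and bile acid precursors into peroxisomes, and *Crat* (-0.62, adjusted p = 0.0594), the carnitine acetyltransferase, were closest to the threshold. Of 22 mitochondrial beta-oxidation genes, all were fitted lower, with 18 at an unadjusted p under 0.05 in edgeR and a median of -0.33. After adjustment 4 passed the test in edgeR and 10 in DESeq2. Those 4 were *Cpt2* (-0.49, edgeR adjusted p = 0.0468) and *Slc25a20* (-0.44, adjusted p = 0.0468), which bring acyl groups into the matrix, *Etfdh* (-0.51, adjusted p = 0.0494), which passes electrons on to the respiratory chain, and *Acat1* (-0.46, adjusted p = 0.0495), a thiolase. Every one of these 4 calls lies near the threshold, and at most 2 genes of the list were called in any fit that left out a mouse.

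Of 36 PPARA targets outside the thioesterases, 6 fell and 0 rose in edgeR, with 23 at an unadjusted p under 0.05. Their median was -0.40, and 1 to 5 were called when a mouse was left out. DESeq2 called 15 lower and 1 higher, *Ucp2* (0.74, adjusted p = 0.0039 in DESeq2 and 0.0937 in edgeR), an uncoupling protein of the mitochondrial membrane. *Ucp2* had 1027, 1174 and 853 normalized counts in WT mice and 1776, 2085 and 1243 in *Fmo5*-/- mice, and like the Kupffer cell marker sums given beside *Acot9* it was lowest of the knock-outs in the third *Fmo5*-/- mouse. The part of those cells in its values was not tested. The largest fold among the 6 edgeR calls was that of *Fgf21* (-1.89, edgeR adjusted p = 0.0495), a fasting hormone of the liver. *Fitm1* (-0.89, adjusted p = 0.0081) and *Cidec* (-1.31, adjusted p = 0.0228) serve lipid droplets, *Pex11a* (-0.97, adjusted p = 0.0133) serves peroxisome division, and the other 2 were *Cpt2* and *Slc25a20*. *Cidec* had 492, 397 and 299 normalized counts in WT mice and 138, 181 and 159 in *Fmo5*-/- mice. Like the adipocyte marker sums given beside *Acot1*, it was highest in the first WT mouse, and the part of those cells was not tested. The first WT mouse also stood apart for *Cyp4a14* (19769, 3043 and 1890 in WT mice) and *Cyp4a10* (15179, 8218 and 5622). *Angptl4* was instead highest in the second WT mouse (2541, 5617 and 2140), and neither it nor the *Cyp4a* genes named were called. Beside this list, the type I thioesterases had a median of -0.45 with 0 of 4 called, and the type II thioesterases a median of -0.11 with 0 of 5 called. The type I median was -0.20 without the first WT mouse and -0.68 without the first *Fmo5*-/- mouse, and the type II median lay between -0.18 and -0.046 over the fits that left out a mouse. Of 14 transcription factors known to act on these genes or on lipid state, 0 were called in edgeR or DESeq2, with 2 at an unadjusted p under 0.05 in edgeR and a median of -0.062. *Pparg* (-0.46, adjusted p = 0.135) and *Nr1h4* (-0.27, adjusted p = 0.187) had the smallest adjusted p.

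Feeding state was looked at because several thioesterase genes are known to answer to it, and the hour of collection of each mouse is not given. Among 15 genes raised by fasting, 1 was called in edgeR, *Fgf21*, with 4 at an unadjusted p under 0.05 and a median of -0.031. That call was lost without any single WT mouse, without the first *Fmo5*-/- mouse and with the reads of 1 strand, at edgeR adjusted p values up to 0.141. DESeq2 called 2 of these lower and 1 higher, *Lcn2*. Of 14 genes raised by feeding, 0 were called in edgeR, with 3 at an unadjusted p under 0.05, 3 called by DESeq2 and a median of -0.46. *Thrsp* (-0.59, adjusted p = 0.0807) and *Elovl6* (-0.67, adjusted p = 0.0908), both of fatty acid synthesis, had the smallest adjusted p of these. The part of feeding in the thioesterase values was not tested.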

How the data were processed

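RNA from 6 mouse livers, 3 WT and 3 *Fmo5*-/-, was sequenced in single reads of 75 bases. The authors clipped adapters, mapped the reads to mm10 with STAR and deposited raw counts per gene for both strands together and for each strand. They also deposited a table of normalized signal values (each library's counts over its DESeq2 size factor) with the fold changes and p-values of their own comparison, which were not used. Raw counts of both strands stood in a fixed ratio to that signal in each library and are the values tested here. Other deposited values, the counts of 1 strand, served as an alternative. The annotation release was not given in the sources used here. Positions, exon lengths and 75-base read windows were taken from GENCODE vM21.

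Of all reads, 66.2% to 69.2% were counted on genes, 10.4% to 13.1% mapped to several places and 3.52% to 3.98% lay in several genes. Library totals came from counts on genes alone, as did all tests. In R 4.3.3, genes were kept by filterByExpr (minimum count 10), scaled by TMM and tested with the robust quasi-likelihood fit of edgeR 4.0.16, genotype being the only term, with Benjamini-Hochberg adjustment over 16734 genes and a threshold of 0.05. Intervals are 95% confidence intervals from the standard error. With 3 mice per genotype, each p-value sets the genotype difference against the spread between mice. The fit estimates that spread from the gene's own values and in part from other genes. Levels between genes are TMM-scaled CPM per kb of exon union. Correlations are Pearson's r. The steps were tested on simulated data.

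The members and lists were chosen with earlier results of these data known. The genes named are *Fmo5*, the 9 members, the other Acot and Them genes, genes sharing read windows or exons with a member, in each list up to 4 called genes or otherwise the 2 with the smallest adjusted p, and the 3 genes most like each of the 2 most variable members. Marker genes of adipocytes, Kupffer cells and erythroid cells were outside that rule, as were *Ucp2*, *Lcn2*, *Cyp4a14*, *Cyp4a10* and *Angptl4*. All of these were named after their values were seen. Alternatives were DESeq2 1.42.0, RLE factors, TMM without the 20 most abundant genes, no filter, a mean of 500 or more set before the fit, 1 strand, each mouse left out, other lengths and another place for *Acot13*.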

Additional observations from a re-analysis of the deposited data

How the results depend on the processing

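The fold changes of *Acot1*, *Acot3*, *Acot4*, *Acot8*, *Acot9*, *Acot12* and *Acot13* kept their direction under every alternative run. *Acot2*, *Acot3* and *Acot9* could not enter the fit restricted to a mean of 500 or more. With no filter on low counts *Acot1* passed the threshold at a log2 fold change of -0.51, and 1 thioesterase was called, with or without the limit of 500 on the mean. *Acot2* turned to 0.14 without WT replicate 1 and 0.032 without *Fmo5*-/- replicate 3. *Acot7* turned to 0.0039 with the scaling without the 20 most abundant genes, 0.062 with the limit of 500 before the fit, 0.014 without WT replicate 2 and 0.030 without *Fmo5*-/- replicate 3. The cause of these changes was not tested. Leaving out 1 mouse at a time gave *Acot2* -0.27 to 0.14 and *Acot7* -0.031 to 0.030, and, of those that kept their direction, *Acot1* -0.61 to -0.24, *Acot3* -1.96 to -0.25, *Acot4* -0.78 to -0.17, *Acot8* -0.18 to -0.046, *Acot9* 0.12 to 0.42, *Acot12* -0.34 to -0.17 and *Acot13* -0.34 to -0.15.

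Over all genes 1396 were called by DESeq2, 1989 with no filter, 53 with the limit of 500 before the fit, and 31 to 763 with 1 mouse left out. In the lists, DESeq2 and the fit with no filter called 4 and 4 synthetases (0 to 2 with 1 mouse left out), 4 and 5 other thioester hydrolases (0 to 4), 5 and 7 genes of coenzyme A handling, 5 and 6 of peroxisomal oxidation (0 to 1), 10 and 13 of mitochondrial oxidation (0 to 2), 16 and 18 PPARA targets (1 to 5), 3 and 3 fasting genes (0 to 1) and 3 and 2 feeding genes (0 to 2). The transcription factors had 2 calls with no filter and 0 to 1 with a mouse left out. RLE factors gave 1 call in peroxisomal oxidation. The limit of 500 before the fit left 0 other hydrolases, 0 mitochondrial oxidation genes, 2 PPARA targets and 0 fasting genes. The counts of 1 strand left 1 other hydrolase, 1 mitochondrial oxidation gene and 0 fasting genes.

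With *Acot13* in the cytosol, the cytosol held 83.2% in WT and 83.3% in *Fmo5*-/- mice and the mitochondrion 2.62% and 3.18%. As shares of raw counts, with no division by length, the cytosol held 54.2% and 55.2%, the mitochondrion 18.7% and 19.8% and the peroxisome 27.1% and 25.0%. Per kb of the longest transcript the WT level was 8.92 for *Acot1*, 14.4 for *Acot7*, 14.1 for *Acot8* and 1.66 for *Acot9*, and per kb of windows found in no other gene it was 2.89 for *Acot2* and 1.35 for *Acot9*. The other levels moved by less than the SD between mice. No paired analysis was possible because the labels give the mice no shared replicate numbers. The fewest reads behind a value were 80 for *Acot3* and 120 for *Acot9*, and the part of depth in the absence of calls was not tested.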
